A study of Mus musculus with 2 samples.

Results

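The megakaryocyte and platelet genes described here are 9 genes: the integrin subunits Itga2b and Itgb3, the von Willebrand factor receptor subunits Gp1ba, Gp9 and Gp5, the granule protein genes Pf4 and Vwf, and the platelet receptors Treml1 and Clec1b. They were taken by gene symbol from the 22216 rows of the deposited table, and each symbol matched 1 row. Spleen RNA was sequenced as 1 library of genotype NOD.L7 and 1 library of genotype NOD.g7, each from 3 mice whose spleens were pooled. The series title calls the first kind NOD.Lc7 and the second NOD, the diabetes-prone non-obese diabetic strain that both genotype names carry, and the table's columns NOD.LC7 and NOD were matched to the genotypes on that basis. The labels name no treatment and do not say what L7, Lc7 or g7 stand for, and the sources used here do not give age or sex. Values are RPKM, scaled by the authors to gene length and to library depth, so levels can be set side by side between genes. Their smallest steps are worth single bases of coverage, not whole reads.

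Megakaryocytes are the large, polyploid cells that shed platelets, and in mice the spleen red pulp is a site of platelet production as well as a store of circulating platelets. Platelets stick to damaged vessel walls when the glycoprotein Ib-IX-V complex binds von Willebrand factor, and stick to each other when the integrin alphaIIb beta3 binds fibrinogen. Activated platelets empty their alpha granules, which hold chemokines, adhesion proteins and clotting factors. RNA of whole spleen sums over all its cells, so fewer megakaryocytes or platelets and less RNA per cell cannot be told apart here.

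The 2 spleen pools held these genes at much the same levels. All 9 were above 0 in both libraries, and the ratio of NOD.L7 to NOD.g7 ran from 0.907-fold for Clec1b to 1.23-fold for Vwf. The ratio was above 1 for 5 genes (Vwf, Gp9, Pf4, Itga2b and Itgb3) and below 1 for 4 (Gp1ba, Treml1, Gp5 and Clec1b). With 1 library per genotype there is no spread between mice to set a difference against, so no test was made, and the 95% intervals given below cover counting error only. They rest on fragment numbers approximated from the RPKM and the sequencing depth, 12.1 Gb of mapped sequence in NOD.L7 and 9.13 Gb in NOD.g7. For 7 of the 9 genes the interval of the fold included 1, and the exceptions were Vwf and Itga2b. The count depends on the fragment size assumed: at 400 bases in place of 200 the interval of Itga2b included 1, and at 100 bases that of Itgb3 left it out too. Among the 11029 genes of the table that reached an RPKM of 1 in 1 of the libraries or both and had a transcript length, the interval left out 1 for 49.1%. Gp5 and Treml1 stayed below that RPKM, and of the 7 platelet genes that reached it the interval left out 1 for 2. Of the 2672 genes whose mean RPKM was between 1 and 5, the range of most of the platelet genes, the share was 44.4%. An interval without 1 was thus common in this comparison.

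**Figure D1:**
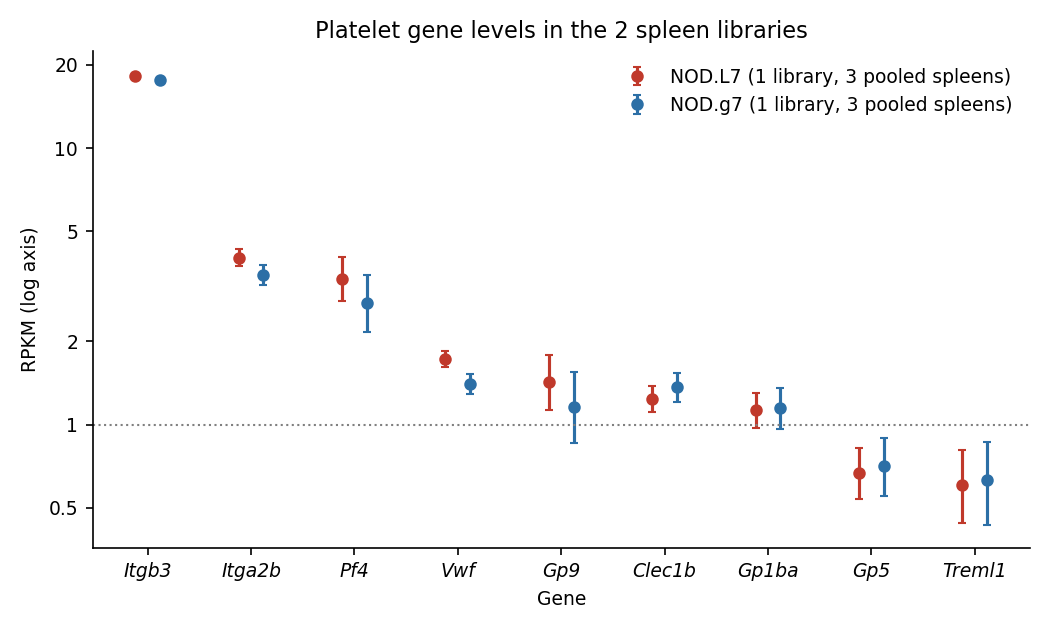
RPKM (log axis) of the 9 platelet genes in the NOD.L7 library (red) and the NOD.g7 library (blue), 1 library each; bars are 95% counting intervals (exact Poisson) and the dotted line marks an RPKM of 1. Itgb3 stands near 18 in both libraries, the other genes lie between 0.605 and 4.02, and the paired points are close together for every gene.

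The integrin genes were the most abundant of the set. Itgb3, the beta3 subunit shared by the platelet fibrinogen receptor and the vitronectin receptor, was at an RPKM of 18.2 in NOD.L7 and 17.5 in NOD.g7, a fold of 1.04 (interval 0.997 to 1.08). Itga2b, the alphaIIb subunit (CD41) that pairs with beta3 alone, was at 4.02 in NOD.L7 and 3.48 in NOD.g7, a fold of 1.15 (interval 1.03 to 1.29). The beta3 transcript was thus present at 4.52 times the level of its platelet partner in NOD.L7 and 5.04 times in NOD.g7. Itgav, the alphav subunit that also pairs with beta3 and is made by many cells, was at 8.82 in NOD.L7 and 7.89 in NOD.g7, between the levels of Itgb3 and Itga2b in both libraries. Itgb3 made up 56.2% of the summed RPKM of the 9 genes in NOD.L7 and 58.1% in NOD.g7, so a sum over the set mostly follows a gene that macrophages and other cells also express.

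The 3 genes of the set that encode subunits of the von Willebrand factor receptor were low, and the interval of each fold included 1. Gp1ba, which carries the ligand-binding site, was at 1.13 in NOD.L7 and 1.15 in NOD.g7, a fold of 0.986 (interval 0.786 to 1.23). Gp9, the small subunit needed for the complex to reach the surface, was at 1.43 in NOD.L7 and 1.16 in NOD.g7, a fold of 1.23 (interval 0.838 to 1.796). Gp5, the subunit cleaved by thrombin, was at 0.669 in NOD.L7 and 0.711 in NOD.g7, a fold of 0.941 (interval 0.685 to 1.31). The Gp9 value rests on about 76 fragments in NOD.L7 and 47 in NOD.g7, and a difference of its size was not detectable at this depth. Gp1bb, the beta chain of glycoprotein Ib, was at 0.620 in NOD.L7 and 0.551 in NOD.g7 (fold 1.13, interval 0.787 to 1.64). The 4 genes of the complex therefore gave ratios on both sides of 1, and no interval among them left it out.

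Promoters of megakaryocyte genes are known for neighbouring sites of GATA and ETS family factors, among them Gata1 and Fli1. RefSeq promoter sequences (build GRCm38.p6, the C57BL/6J reference and not the NOD genome) were found for 7 of the 9 genes. The 250 bases before the start are shown for the 3 receptor subunits, whose windows hold both motifs, and for Pf4 with its chromosomal neighbour Ppbp, whose RNA ratios are compared below. They are Gp1ba (chr11:70638872-70639121, plus strand), Gp9 (chr6:87777820-87778069, plus strand), Gp5 (chr16:30310782-30311031, minus strand), Pf4 (chr5:90772185-90772434, plus strand) and Ppbp (chr5:90768268-90768517, plus strand), written 5′ to 3′. Capitals mark the letters GATAA, taken as the core of a GATA factor site, on either strand. They also mark AGGAAG, taken as the core of an ETS factor site, on either strand.
Gp1ba: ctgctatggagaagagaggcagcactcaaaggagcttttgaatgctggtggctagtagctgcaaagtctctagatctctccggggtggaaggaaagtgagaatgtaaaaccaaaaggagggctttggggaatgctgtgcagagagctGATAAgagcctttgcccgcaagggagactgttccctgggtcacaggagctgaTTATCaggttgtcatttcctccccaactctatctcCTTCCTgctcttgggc
Gp9: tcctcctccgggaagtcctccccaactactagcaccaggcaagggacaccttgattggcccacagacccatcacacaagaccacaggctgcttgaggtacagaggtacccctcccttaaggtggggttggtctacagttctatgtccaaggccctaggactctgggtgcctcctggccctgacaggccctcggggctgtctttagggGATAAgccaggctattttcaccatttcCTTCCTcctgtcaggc
Gp5: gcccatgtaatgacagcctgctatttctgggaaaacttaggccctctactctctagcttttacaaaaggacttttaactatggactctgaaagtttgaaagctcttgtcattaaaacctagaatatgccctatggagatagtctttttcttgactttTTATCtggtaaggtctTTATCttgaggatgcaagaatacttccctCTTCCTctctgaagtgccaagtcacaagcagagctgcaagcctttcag
Pf4: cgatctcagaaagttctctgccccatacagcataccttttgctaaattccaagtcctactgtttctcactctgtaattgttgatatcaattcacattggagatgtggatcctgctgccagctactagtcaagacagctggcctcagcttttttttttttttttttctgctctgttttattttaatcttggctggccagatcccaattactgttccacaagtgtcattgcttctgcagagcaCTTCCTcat
Ppbp: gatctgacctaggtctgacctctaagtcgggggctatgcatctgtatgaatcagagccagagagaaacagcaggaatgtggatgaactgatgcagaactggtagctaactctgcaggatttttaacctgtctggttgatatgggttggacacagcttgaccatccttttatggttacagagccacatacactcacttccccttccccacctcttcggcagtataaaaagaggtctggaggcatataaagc

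The GATA core was present in 4 of the 7 windows (Gp9, Gp1ba, Gp5 and Clec1b) and in 22.6% of all 32851 promoter windows of this length. The ETS core was present in 5 of the 7 (Pf4, Itga2b, Gp9, Gp1ba and Gp5) and in 29.5% of all windows. Both were present in 3 of the 7, the receptor subunits, against 6.58% of all windows. In Gp9 and in Gp1ba the ETS core begins 16 bases before the start, and the nearest GATA core begins 43 bases before it in Gp9 and 51 in Gp1ba. The bases just after the RefSeq start are in no GENCODE M21 transcript of Gp9 or Gp5, so the annotations differ on where these 2 genes start. In the Pf4 window the ETS core begins 9 bases before the start, while the Ppbp window holds neither string of letters. In the windows shown the marked matches of the 2 motifs share no letters, and matches are descriptions of the sequence, not evidence of binding.

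The granule protein genes of the set, Pf4 and Vwf, had folds of NOD.L7 over NOD.g7 above 1. Pf4, the chemokine CXCL4 stored in alpha granules, was at 3.37 in NOD.L7 and 2.75 in NOD.g7, a fold of 1.22 (interval 0.909 to 1.66). The short transcript gave about 120 fragments in NOD.L7 and 74 in NOD.g7, so the interval is wide. Vwf, the large multimeric adhesion protein made by megakaryocytes and endothelial cells, was at 1.73 in NOD.L7 and 1.40 in NOD.g7, a fold of 1.23 (interval 1.11 to 1.37). Pf4 and Vwf had near equal folds, and the interval left out 1 for the longer transcript alone.

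The fold of Vwf stood beside mixed values of the other endothelial markers. Of 13 such markers 5 reached an RPKM of 1, and of these 3 were higher and 2 lower in NOD.L7. Among all genes that reached it 56.2% were higher. The median log2 ratio of the 5 markers was 0.09. Its sign rests on the filter, being -0.01 over all 13 markers and -0.03 for Pecam1, the 1 marker left at a minimum RPKM of 5. Plvap, a protein of endothelial diaphragms, was at 1.14 in NOD.L7 and 0.624 in NOD.g7, and Eng (endoglin) was at 1.94 in NOD.L7 and 2.67 in NOD.g7. Stab2 was at 2.02 in NOD.L7 and 1.66 in NOD.g7, a fold of 1.22 (interval 1.10 to 1.35), near that of Vwf. Cdh5, the endothelial cadherin, was at 1.09 in NOD.L7 and 0.957 in NOD.g7, while Tek and Sox17 were near 0 in both libraries. The summed RPKM of the list was 78.7 in NOD.L7 and 80.1 in NOD.g7, most of it Pecam1, which leukocytes also express. The part of endothelial cells in the Vwf value was not tested.

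Both remaining receptors had a fold below 1, with an interval that included 1. Clec1b, the receptor CLEC-2 that binds podoplanin and signals through Syk and Plcg2, was at 1.24 in NOD.L7 and 1.36 in NOD.g7, a fold of 0.907 (interval 0.771 to 1.07). Taking its longest transcript linked to a RefSeq accession, which is shorter than the longest annotated one, widened that interval to 0.652 to 1.27. Treml1, the alpha granule receptor TLT-1 that moves to the surface of activated platelets, was at 0.605 in NOD.L7 and 0.629 in NOD.g7, a fold of 0.962 (interval 0.610 to 1.56). It was the least abundant of the 9 genes, at about 45 fragments in NOD.L7 and 35 in NOD.g7.

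The order of the levels was nearly the same in both libraries. In NOD.L7 it ran Itgb3, Itga2b, Pf4, Vwf, Gp9, Clec1b, Gp1ba, Gp5 and Treml1, and in NOD.g7 Clec1b stood ahead of Gp9. The counting intervals of neighbours in this order did not overlap at 3 steps in each library, between Itgb3 and Itga2b, between Pf4 and Vwf, and between Gp1ba and Gp5. The highest gene was 30.02 times the lowest in NOD.L7 and 27.9 times in NOD.g7, whereas the widest gap of any of them between libraries was 1.23-fold.

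To set these genes beside the whole table, 1 was added to each RPKM and the log2 of NOD.L7 over NOD.g7 was taken, a scale that shrinks differences of weakly expressed genes. A total of 11141 genes that reached an RPKM of 1 in 1 of the libraries or both were compared. Of the 9 platelet genes 7 reached that level, and Gp5 and Treml1 did not. None of the 7 had an absolute log2 ratio of at least 1, against 0.709% of all genes compared, and none had one of at least 0.25, against 13.6%. The second count rests on the value added: with 0.1 in place of 1, Pf4, Vwf and Gp9 reached 0.25 (3 of 7, against 1961 of the 11141 genes), and with 0.5 Pf4 did, at 0.2504 (1 of 7, against 1738). A total of 5 of the 7 were above 0, against 56.2% of all genes. Their median was 0.16, against 0.02 for all genes compared. The filter weighs on that median, since over all 9 genes it was 0.05. The largest absolute ratio was 0.22, for Pf4, with 83.7% of the absolute ratios of all genes compared at or below it, and the smallest was -0.01, for Gp1ba, with 8.02% at or below it.

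**Figure D2:**
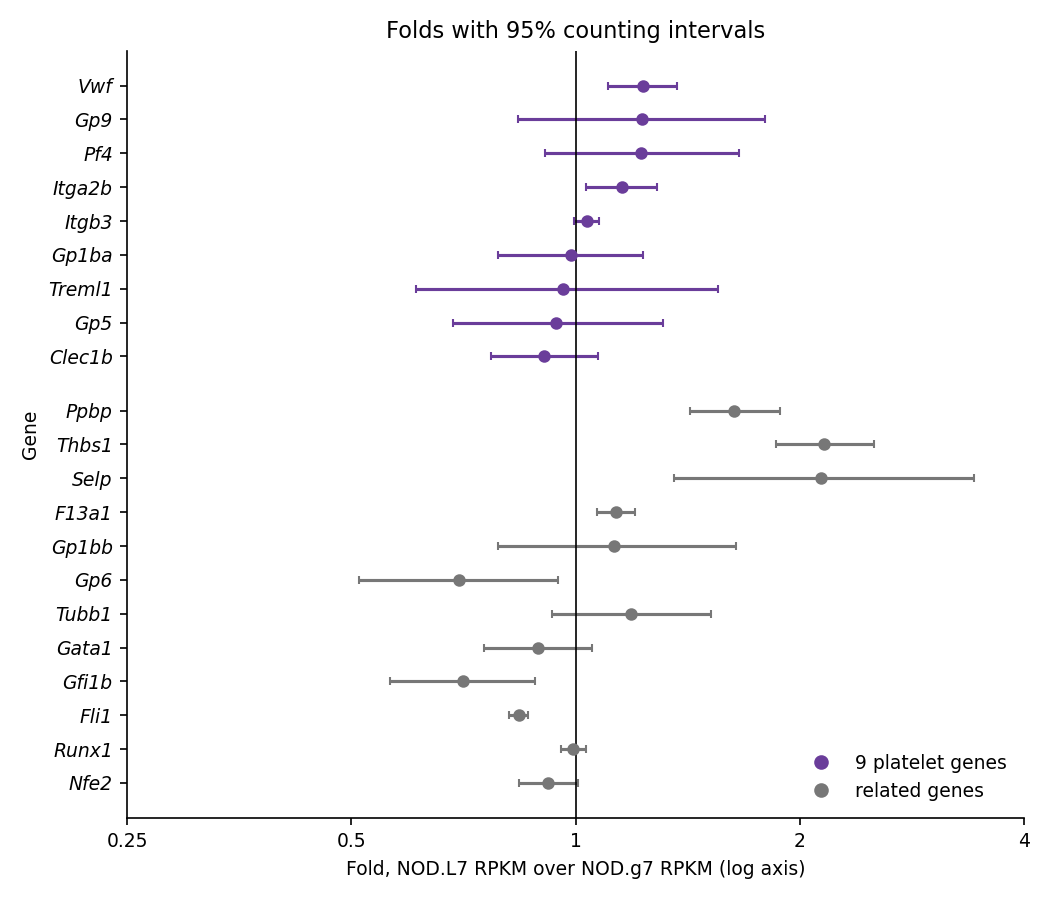
Fold of RPKM (NOD.L7 over NOD.g7, log axis) with 95% counting intervals (exact binomial) for the 9 platelet genes (purple) and 12 related genes (grey). The purple folds lie between 0.907 and 1.23, while grey folds reach 2.16 for Thbs1 and 0.697 for Gp6.

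Other genes of the pathway were read from 4 lists, for granule proteins, surface receptors, signalling and transcription factors, holding 84 genes, of which 83 were found and 63 reached an RPKM of 1. Of these 63 genes, 36 were higher and 27 lower in NOD.L7, at a median log2 ratio of 0.05. Of all genes compared 56.2% were higher, the share to set beside the counts of higher genes in each list below. Of the 63 genes 14 reached a log2 ratio of 0.25 (8.82% of all genes did) and 6 reached -0.25 (4.74% of all genes did). In the surface and signalling lists many members are expressed by leukocytes of the spleen too, so their levels are not platelet levels.

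The granule and secreted proteins had the highest median of the 4 lists. Of 11 genes compared, 8 were higher and 3 lower, with a median of 0.34, and 6 reached a log2 ratio of 0.25 (8.82% of all genes did). That median was 0.16 over the 15 genes found with no filter and 0.66 with 0.1 added to each RPKM in place of 1. Ppbp, the platelet basic protein and chemokine precursor next to Pf4 on chromosome 5, was at 10.1 in NOD.L7 and 6.16 in NOD.g7, a fold of 1.63 (interval 1.43 to 1.88). The level of Ppbp was 2.99 times that of Pf4 in NOD.L7 and 2.24 times in NOD.g7.

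Serpine2, a thrombin inhibitor of alpha granules, was at 5.18 in NOD.L7 and 1.91 in NOD.g7, and with a log2 ratio of 1.08 it was the 1 gene of the 4 lists to reach an absolute ratio of 1. Thbs1 (thrombospondin, an adhesive granule glycoprotein that monocytes also make) was at 1.88 in NOD.L7 and 0.874 in NOD.g7, and F5 (clotting factor V) was at 2.21 in NOD.L7 and 1.09 in NOD.g7. Selp, the P-selectin of alpha granule membranes, was at 0.366 in NOD.L7 and 0.171 in NOD.g7, a fold of 2.14 (interval 1.35 to 3.43) on about 76 fragments in NOD.L7 and 27 in NOD.g7. F13a1, the clotting factor XIII subunit of platelets and macrophages, was closer, at 11.7 in NOD.L7 and 10.3 in NOD.g7. Vwa5a went the other way, at 5.47 in NOD.L7 and 9.51 in NOD.g7, but whether it is a granule or secreted protein was not checked. Nbeal2, needed for alpha granules to form, was at 19.7 in NOD.L7 and 20.1 in NOD.g7.

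The surface receptors were mixed, with 9 of 15 higher and a median of 0.10 (0.04 with no filter). Gp6, the platelet collagen receptor, was at 0.237 in NOD.L7 and 0.340 in NOD.g7 (fold 0.697, interval 0.512 to 0.948). Cd63, a granule tetraspanin, was at 4.80 in NOD.L7 and 2.96 in NOD.g7, and the tetraspanin gene Cd9 was at 49.0 in NOD.L7 and 36.1 in NOD.g7. Esam, an adhesion molecule of platelets and endothelium, was at 1.76 in NOD.L7 and 1.14 in NOD.g7, and F2rl3, a thrombin receptor, was at 1.90 in NOD.L7 and 2.45 in NOD.g7. The adenosine diphosphate receptor P2ry12 was near equal, at 2.08 in NOD.L7 and 2.05 in NOD.g7.

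The signalling list centred on 0, with 12 of 21 genes higher and a median of 0.02. Tubb1, the beta tubulin of the platelet marginal band, was at 2.04 in NOD.L7 and 1.72 in NOD.g7 (fold 1.19, interval 0.930 to 1.52), near the folds of Pf4, Vwf and Gp9. The genes furthest from 0 in the list were Tbxas1, the thromboxane synthase, at 3.98 in NOD.L7 and 2.57 in NOD.g7, and Ptgs1, a cyclooxygenase, at 4.65 in NOD.L7 and 3.31 in NOD.g7, and macrophages also express both. The adaptor gene Lcp2 was at 50.4 in NOD.L7 and 41.5 in NOD.g7, and Ctla2a was at 11.5 in NOD.L7 and 14.9 in NOD.g7. The CLEC-2 signalling genes Sykb (an older symbol of Syk) and Plcg2 were at 201 and 74.9 in NOD.L7 and at 188 and 79.3 in NOD.g7, and B cells use both.

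The transcription factors and growth signals were also centred on 0, with 7 of 16 higher, 9 lower and a median of -0.01. Gata1, the master factor of megakaryocytes and red cells, was at 2.72 in NOD.L7 and 3.05 in NOD.g7 (fold 0.889, interval 0.752 to 1.05). Gfi1b, a repressor needed in both lineages, was at 1.43 in NOD.L7 and 2.03 in NOD.g7 (fold 0.706, interval 0.564 to 0.882), and Tal1 was at 1.47 in NOD.L7 and 2.70 in NOD.g7. Nfe2, which governs platelet release, was at 9.05 in NOD.L7 and 9.85 in NOD.g7. Fli1 was at 43.1 in NOD.L7 and 51.4 in NOD.g7, and Runx1 was at 16.9 in NOD.L7 and 17.0 in NOD.g7, both factors that lymphocytes also express. Kit and Gata2, of progenitors and mast cells, were higher, at 7.16 and 2.53 in NOD.L7 and at 5.02 and 1.69 in NOD.g7.

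Markers of other cell types stood on both sides of 0 in the same libraries. All 13 erythroid markers compared were lower in NOD.L7. Their median log2 ratio was -1.13, 8 of them reached -1 (0.323% of all genes did), and their summed RPKM was 67.6 in NOD.L7 and 167 in NOD.g7. Rhd, a blood group gene, had an RPKM of 1.56 in NOD.L7 and 6.71 in NOD.g7. Gata1, Gfi1b, Tal1 and Nfe2 are expressed in that lineage as well as in megakaryocytes, and the part of erythroid cells in their values was not tested. All 15 red pulp macrophage and monocyte markers were higher in NOD.L7. Their median was 0.59, 2 of them reached 1 (0.386% of all genes did), and their summed RPKM was 798 in NOD.L7 and 521 in NOD.g7. The part of macrophages in the values of Itgb3, Thbs1, F13a1, Tbxas1 and Ptgs1 was not tested.

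Stem and progenitor markers, read because early progenitors carry Itga2b, had 5 of 6 genes higher and a median of 0.35 (0.15 over all 11 genes with no filter). Flt3 was at 10.3 in NOD.L7 and 7.81 in NOD.g7, and the 1 lower gene was Myb, at 9.92 in NOD.L7 and 10.1 in NOD.g7. Cd34, below an RPKM of 1 and so not among the 6, was at 0.399 in NOD.L7 and 0.537 in NOD.g7. Mast cell and basophil markers had 8 of 9 higher and a median of 0.39, with Hdc, the histidine decarboxylase that makes histamine, furthest from 0 at 26.4 in NOD.L7 and 5.20 in NOD.g7. Cma1, a mast cell chymase, was the 1 marker that was lower, at 1.36 in NOD.L7 and 3.48 in NOD.g7. The part of these cells in the Itga2b fold of 1.15 was not tested.

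**Figure D3:**
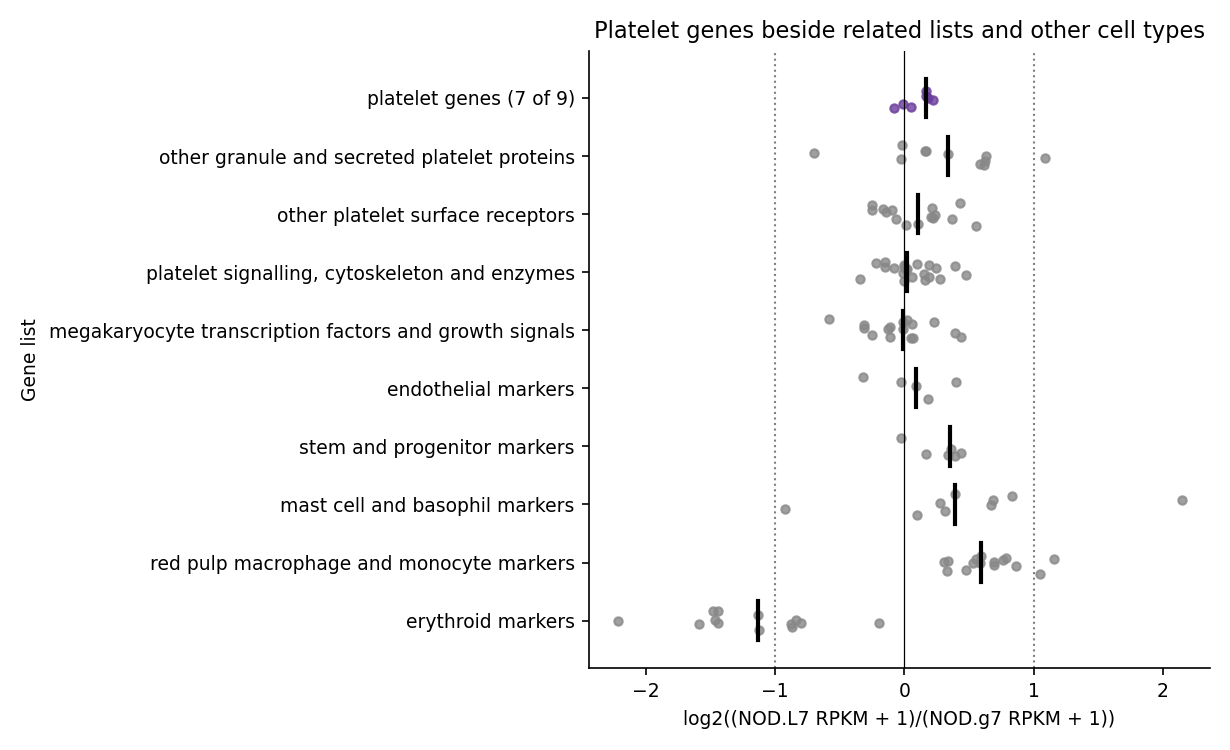
Log2 ratio of RPKM with 1 added (NOD.L7 over NOD.g7) for genes that reached an RPKM of 1, 1 point per gene and 1 row per list; black bars are medians and dotted lines mark -1 and 1. The 7 platelet genes lie between -0.08 and 0.22, erythroid markers have a median of -1.13 and macrophage markers one of 0.59.

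Genes related to single members were also read, and some of them, such as Ppbp, Stab2, Itga2, Itga6 and Itgb1, were counted in the lists above too. Of 11 integrin subunits related to the beta3 integrins 9 were higher, with a median of 0.17. Itgam, of myeloid cells, was furthest from 0 on the log2 scale with 1 added, at 27.5 in NOD.L7 and 21.1 in NOD.g7, while Itga5, the fibronectin receptor subunit, had the larger plain fold (1.45), at 2.50 in NOD.L7 and 1.73 in NOD.g7. The 4 genes that handle von Willebrand factor and reached an RPKM of 1 were all higher, at a median of 0.18, with the scavenger receptor gene Lrp1 at 18.3 in NOD.L7 and 14.1 in NOD.g7. Adamts13, the protease that cuts von Willebrand factor, was at 0.145 in NOD.L7 and 0.107 in NOD.g7. Chemokine relatives of Pf4, with the receptor gene Cxcr3 among them, had a median of 0.07 over 5 genes (0.02 over 12 with no filter). Cxcl10 was at 1.73 in NOD.L7 and 1.24 in NOD.g7. Pdpn, the ligand of CLEC-2, was close to 0, at 0.0166 in NOD.L7 and 0.0124 in NOD.g7, on about 2 fragments in NOD.L7 and 1 in NOD.g7.

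The chromosomal surroundings of all 9 genes were also described, and Gp9, Vwf and Clec1b lie on chromosome 6. In the table's coordinates (mm9), Gp9 spans 87728130 to 87729756, Vwf 125502981 to 125636695 and Clec1b 129347315 to 129355431, and no span of the 9 genes overlaps that of another row. For each gene the 5 genes on either side with an RPKM of at least 1 were read. The log2 ratio of the platelet gene lay within the range of these 10 neighbours for 8 of 9 genes, the exception being Itga2b. A range over 10 genes would hold most unrelated genes too, so nothing is concluded from this count. Around Vwf 6 of 10 neighbours had an absolute ratio of at least 0.25, against 13.6% of all genes compared. Cd9 next to Vwf was at a log2 ratio of 0.43 and Ndufa9 on the other side at -0.14. Around Clec1b 4 of 10 neighbours reached 0.25, and its adjoining lectin genes Clec12a and Clec9a were at -0.22 and -0.00433. Of those 4, Clec7a, the beta-glucan receptor Dectin-1, was higher, at a log2 ratio of 0.58, and the lectin-like receptor genes Klre1, Klrd1 and Klrb1f were lower, at -0.77, -0.75 and -0.67. Around Gp9 none reached 0.25, with Aplf and Rab43 next to it at 0.00107 and 0.22. On the other chromosomes the count was 3 of 10 around each of Pf4 and Treml1 and 2 around Gp1ba. It was 1 around each of Itga2b, Itgb3 and Gp5.

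The other 6 members lay beside neighbours whose ratios spread widely in places. Itga2b (chromosome 11, 102314611 to 102331197) was at 0.16 between Grn at 0.07 and Gpatch8 at -0.03, and 4 genes before it stood Slc4a1, the red cell anion exchanger, at -2.22. Treml1 (chromosome 17, 48499241 to 48506471) was at -0.02 between B430306N03Rik at 0.29 and Nfya at -0.01, while Trem1, a myeloid receptor of the same family, was at 6.76 in NOD.L7 and 2.57 in NOD.g7, a log2 ratio of 1.12. Pf4 (chromosome 5, 91201461 to 91202409) was at 0.22 between Ppbp at 0.63 and Rchy1 at 0.04. Itgb3 (chromosome 11, 104469314 to 104531785) was at 0.05 between Myl4 at 0.14 and Mettl2 at -0.09. Gp1ba (chromosome 11, 70452624 to 70455557) was at -0.01 between Mink1 at 0.11 and Slc25a11 at -0.15, and Gp5 (chromosome 16, 30307779 to 30310865) was at -0.04 between Hes1 at 0.11 and Atp13a3 at 0.08.

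**Figure D4:**
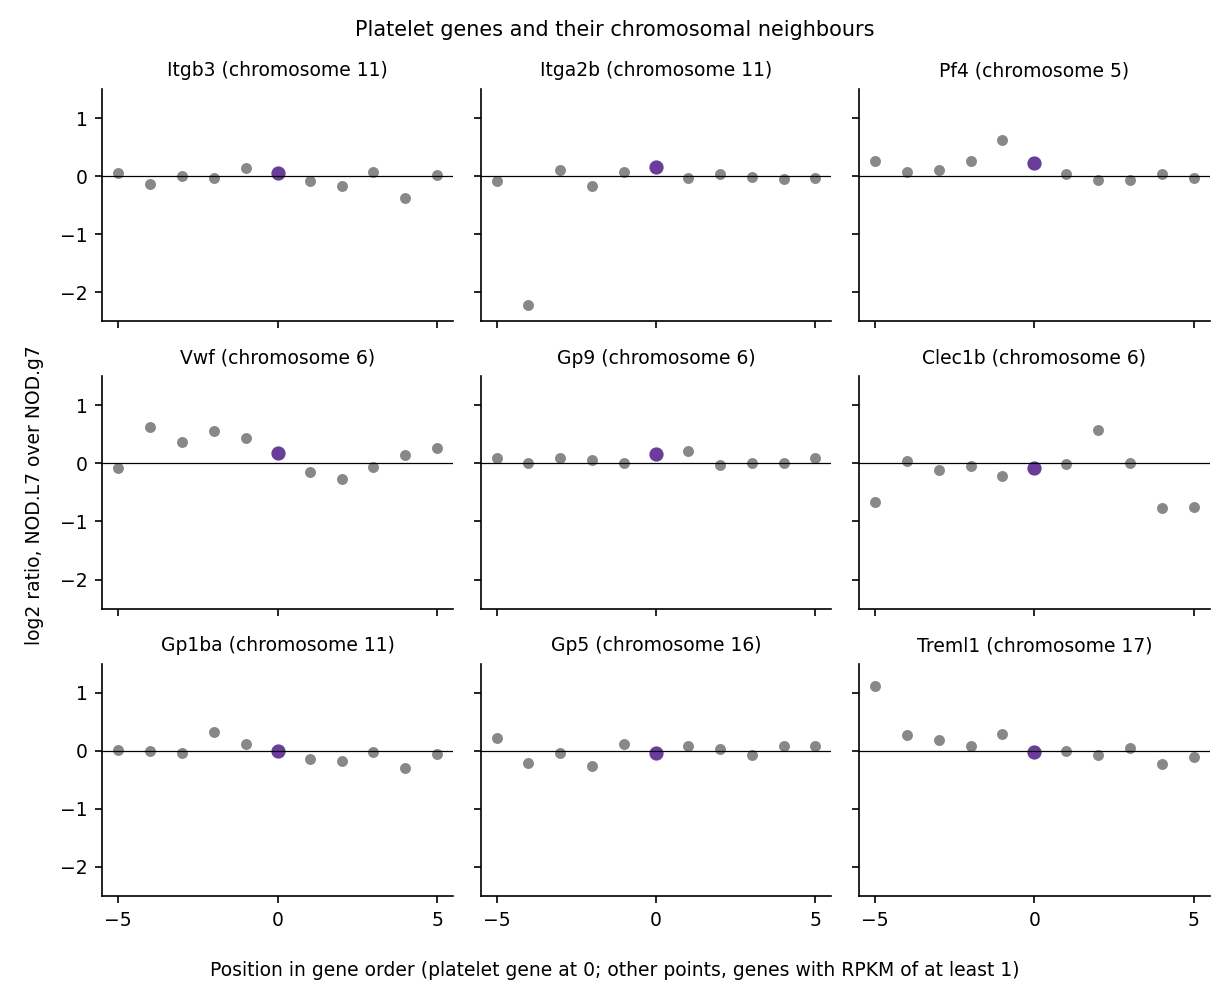
Log2 ratio of RPKM with 1 added (NOD.L7 over NOD.g7) of each platelet gene (purple, position 0) and of the 5 genes on either side with an RPKM of at least 1 (grey), by order along the chromosome. Slc4a1 near Itga2b (-2.22) and Trem1 near Treml1 (1.12) stand furthest from 0, while the 9 platelet genes lie between -0.08 and 0.22.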

How the data were processed

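Spleen RNA of genotypes NOD.L7 and NOD.g7 was sequenced as 1 library each, from 3 pooled mice, with a TruSeq kit, per the labels' protocols. The authors deposited 1 table with 1 RPKM value per gene and library. Per the submitters' processing notes, the tools were CASAVA 1.8.2 and SAMtools 0.1.18 and the build was mm9. Gene models, strand and the handling of multiple matches are not stated in these sources.

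The members and lists were chosen with earlier results of these data known. Named genes were the 9 members, up to 4 genes per list that reached an RPKM of 1 and lay furthest from a log2 ratio of 0, related genes fixed by name and nearest neighbours, and some named by this rule are given only in counts or are not reported here. Depth was read from the steps of low RPKM values of single-exon genes under 2500 bases (span equal to the GENCODE M21 exon). Multiplied by length and depth, 100% of the 127 values in NOD.L7 and of the 122 in NOD.g7 came within 0.15 of a whole number of bases, so the values count covered bases rather than reads, and count models were not used. Fragments were approximated as 200 bases each along the longest transcript of GENCODE. Fold intervals are Clopper-Pearson and level intervals exact Poisson, at 95%. No test was possible. Log2 ratios used a pseudocount of 1 and a minimum RPKM of 1 in either library. Calculations used Python 3.11.15, NumPy 2.4.6, pandas 2.3.3 and SciPy 1.17.1, and were tested on simulated data.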

Additional observations from a re-analysis of the deposited data

How the results depend on the processing

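No paired analysis was possible because the 2 genotypes were sequenced as 1 library each, and no replicate could be left out. The number of platelet genes past an absolute log2 ratio of 1 was 0 under pseudocounts of 0.1 and 0.5, no filter, a minimum RPKM of 5, median centring and a TMM factor, and their median stayed between 0.05 and 0.20. A minimum RPKM of 5 left Itgb3 alone, so 1 gene was higher in NOD.L7, against 5 otherwise. Over the whole table, 166 genes passed with a pseudocount of 0.1 (91 higher, 75 lower), 124 with 0.5 (67 higher, 57 lower) and 52 at a minimum RPKM of 5 (33 higher, 19 lower), against 79, and 808 genes reached an absolute ratio of 0.25 at that minimum, against 1511. Scaling moved all ratios by 0.02 and changed the direction of no platelet gene. With 400 bases per fragment the interval of Itga2b included 1 (0.988 to 1.35), and with 100 bases that of Itgb3 left it out (1.01 to 1.06). The number past 0.25 was 3 with a pseudocount of 0.1 and 1 with 0.5, against 0. The yardstick for a list was the counting error of single genes, taken as a median over its genes, not the error of the list median. Of 84 medians of related lists 12 moved by more than that. With a pseudocount of 0.1 they were those of granule proteins (0.66), erythroid (-1.75), progenitor (0.45) and macrophage markers (0.69), and with 0.5 granule proteins (0.46) and erythroid markers (-1.40). At a minimum RPKM of 5 they were granule proteins (0.16), erythroid markers (-1.46), mast cell markers (2.14, Hdc alone) and chemokine relatives (0.35, Ppbp and the receptor gene Cxcr3 alone). With no filter they were granule proteins (0.16) and progenitor markers (0.15). The median of transcription factors turned to 0.0057 at a minimum RPKM of 5 and that of signalling to -0.0058 under TMM. The RefSeq transcript length used for Clec1b was chosen after seeing the data. Depth limits Treml1, Gp9, Gp5 and Pf4 most, and on its RefSeq transcript length Clec1b too (interval 0.652 to 1.27).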
